A study of Homo sapiens with 12 samples.

Results

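The genes described here encode the small modifier SUMO itself, or proteins that attach it to other proteins or remove it again. The 8 members, SUMO2, SUMO3, SAE1, UBA2, PIAS1, PIAS4, SENP1 and SENP3, were named by symbol and found among the 59251 genes of the count table. They are known as SUMO proteins, ligases and proteases, although SAE1 and UBA2 are neither, being the subunits of the activating enzyme. HL60, an established human myeloid leukaemia cell line, was profiled by RNA-Seq in 4 groups of 3 libraries labelled as biological replicates. All cells were grown in RPMI1640 medium, and the non-treated group received neither agent. The ATRA group received 1 µM all-trans retinoic acid for 48 h, the CDK4/6i group received 1 µM palbociclib, an inhibitor of the cell cycle kinases CDK4 and CDK6, for 48 h, and the CDK4/6i+ATRA group received both at these doses. All results come from this single line and a single time point.

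The libraries held 15392648 to 16935515 counts in the non-treated group, 15238994 to 17010052 with ATRA, 15576806 to 18679544 with CDK4/6i and 12230923 to 14415276 with CDK4/6i+ATRA. Levels are given as CPM, the counts of a gene scaled to a common library total, with libraries adjusted to each other by the trimmed mean of M values (TMM). On this scale 3 counts corresponded to 0.155 to 0.275 CPM, a limit that covers counting error only. Every member was detected in all 12 libraries, and all 8 passed the filter on low counts that left 13318 genes to test.

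SUMO proteins are made as precursors, trimmed by proteases of the SENP family, activated by the heterodimer of SAE1 and UBA2, and joined to lysines of target proteins, often with the help of a ligase such as a PIAS protein. SENP proteases also take SUMO off its targets, so that modification is a balance of attachment and removal. In myeloid leukaemia the pathway is known for the PML protein, whose SUMO modification contributes to the organization of PML nuclear bodies. In promyelocytic leukaemia it also takes part in the breakdown of the fusion of PML with the retinoic acid receptor.

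Each treatment was compared with non-treated cells, the combination was compared with each single agent, and an interaction asked whether the effect of the combination differed from the sum of the single effects on the log2 scale. A gene was called when its Benjamini-Hochberg adjusted p in edgeR's quasi-likelihood test was under 0.05. The comparisons with non-treated cells share those libraries, and the comparisons of the combination share its libraries.

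With ATRA, 2 members were called higher and 5 lower, while 32.1% of all tested genes were called higher and 35.5% lower. With CDK4/6i, 6 members were called lower and the other 2 were not called, against 27.9% of tested genes lower and 28.3% higher. For the combination against non-treated cells, 2 members were called higher and 6 lower, against 41.0% and 40.7% of tested genes. Most of the tested genes were thus called for the combination, and a call by itself says little about a member. Against CDK4/6i alone, the combination had 3 members higher and 4 lower, beside 39.1% and 39.5% of tested genes. Against ATRA alone, it had 7 members lower and the other member not called, beside 32.8% of tested genes lower and 36.9% higher. The interaction was called for 1 member upward and 1 downward, beside 24.5% and 27.0% of tested genes.

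The members' median log2 fold change against non-treated cells was -0.23 for ATRA, -0.46 for CDK4/6i and -0.65 for the combination, and the medians of all tested genes were -0.028, 0.020 and 0.018. The members and lists were chosen with earlier results of these data known, so their medians and counts beside all tested genes are descriptions only. Against the single agents, the members' median with the combination was -0.19 relative to CDK4/6i and -0.55 relative to ATRA, beside 0.0014 and 0.044 for all tested genes. The members' median interaction was 0.055 under TMM and -0.26 under library size alone, beside -0.022 and -0.34 for all tested genes. With no filter it was -0.030, without CDK4/6i+ATRA replicate 2 it was 0.024, and without non-treated replicate 1 it was 0.034. The medians of all tested genes in these settings were -0.095, -0.026 and -0.026. Under library size alone the members' median for the combination was -0.92 against non-treated cells, -0.47 against CDK4/6i and -0.86 against ATRA. With no filter it was -0.29 against CDK4/6i, beside 0 for all tested genes. RNA from a whole culture was measured, so fewer cells of a kind and less RNA per cell cannot be told apart.

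The combination libraries depended on how libraries were scaled. With library size alone in place of TMM, the median of all genes moved from 0.018 to -0.25 for the combination against non-treated cells, from 0.0014 to -0.28 against CDK4/6i, from 0.044 to -0.26 against ATRA and from -0.022 to -0.34 in the interaction. The share of called genes that were higher moved from 50.2% to 40.5% against non-treated cells, from 49.8% to 36.7% against CDK4/6i and from 53% to 31.6% against ATRA. In the interaction this share moved from 47.5% to 18.5%, and 6 members rather than 2 were called, all lower. Beside them, 7434 of all 13318 tested genes were called in the interaction under library size alone, 18.5% of these higher. For the combination against non-treated cells 1 member rather than 2 was called higher, beside 10806 of 13318 tested genes called, 40.5% of these higher. Scaling moves all genes of a comparison nearly alike, so a value taken from the median of all genes hardly depends on it by construction, which is no check on a call. Relative to that median the interaction was -0.42 for SAE1 and 0.41 for SENP1.

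**Figure D1:**
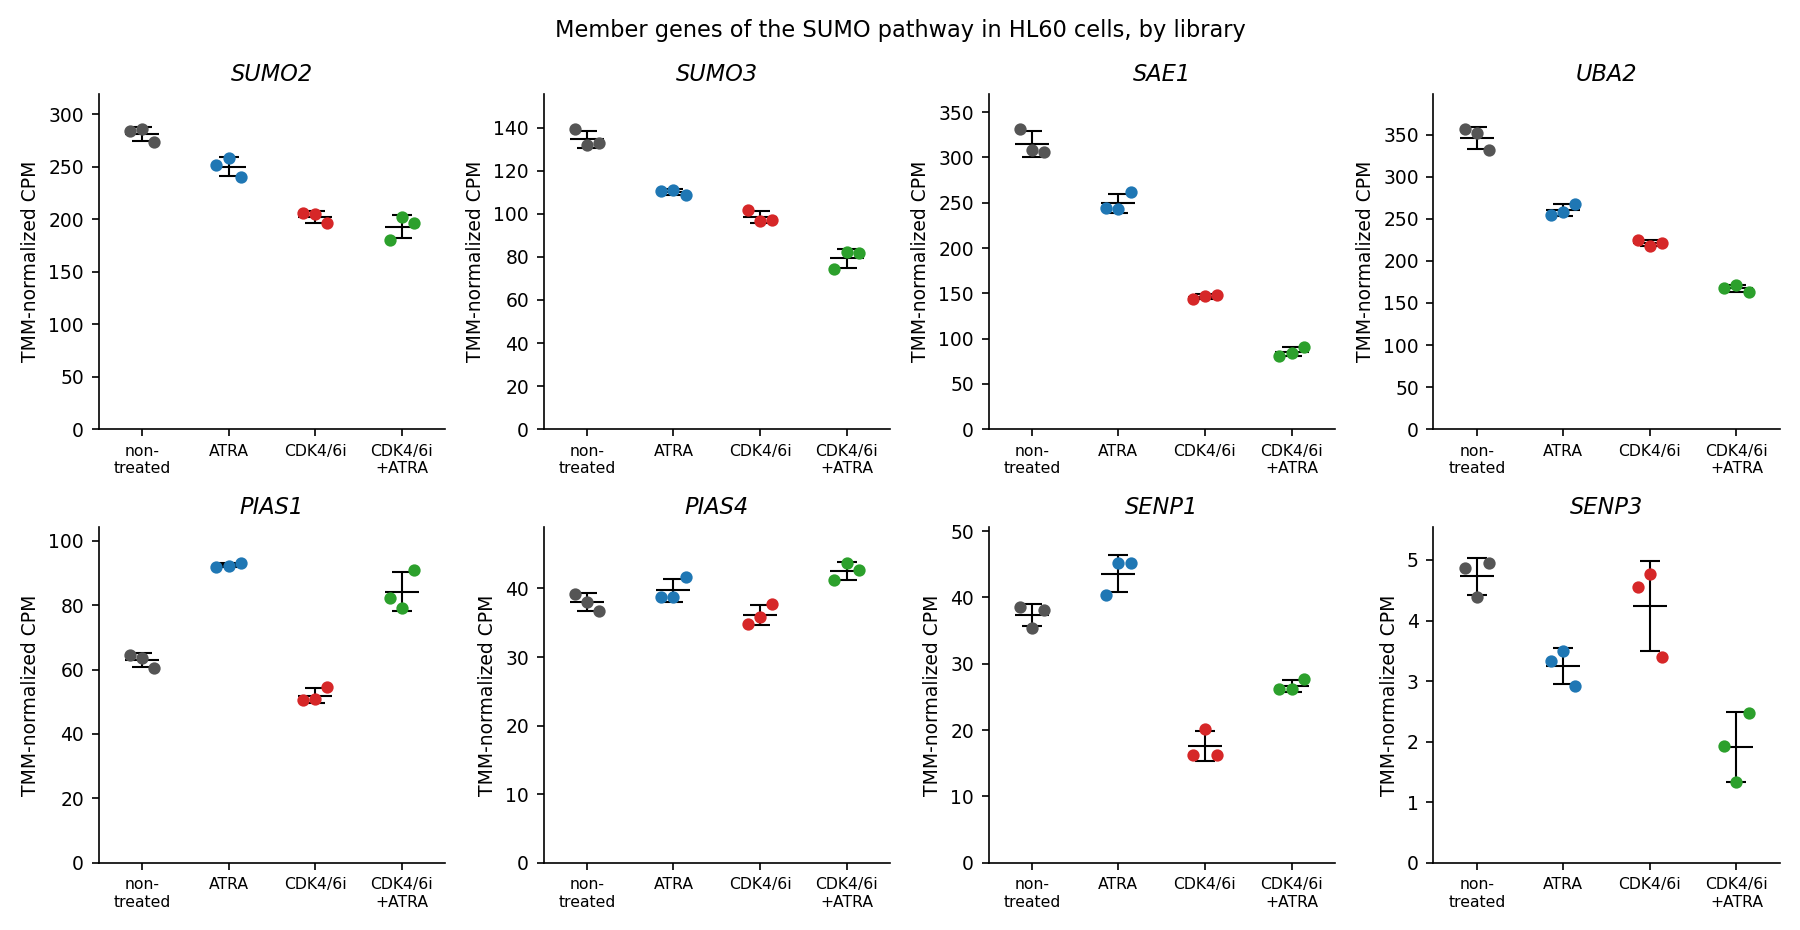
TMM-normalized CPM (vertical axes, from 0) of the 8 members in each of 12 HL60 libraries; points are libraries, long bars the mean of 3 libraries and whiskers the SD. SUMO3, SAE1 and UBA2 stepped down over the 4 groups to CDK4/6i+ATRA, SUMO2 overlapped between CDK4/6i and CDK4/6i+ATRA, PIAS1 was high in both ATRA groups, and PIAS4, whose change with the combination is negative under library size alone, covered a narrow range.

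SUMO2 and SUMO3 encode closely related modifiers that can form chains. SUMO2, on chromosome 17 at 75165586 to 75182959 on the minus strand of hg38, had 284, 285 and 273 CPM in the non-treated libraries, 251.5, 258 and 240.3 with ATRA, 206, 205 and 196 with CDK4/6i, and 181, 202 and 196 with CDK4/6i+ATRA. The non-treated libraries were all above the ATRA libraries, which were all above the other 6, and the CDK4/6i and CDK4/6i+ATRA libraries overlapped. The log2 fold change of SUMO2 with CDK4/6i was -0.47 ± 0.039 (SE, adjusted p = 7.07e-15, edgeR quasi-likelihood test with Benjamini-Hochberg adjustment), lower in 3 of 3 libraries. Adding ATRA to CDK4/6i gave a log2 difference of -0.066 with a 95% interval of -0.15 to 0.017, which was not called (edgeR quasi-likelihood test, Benjamini-Hochberg adjusted p = 0.138). This difference was called without CDK4/6i+ATRA replicate 2 (-0.11), with no filter on low counts (-0.17) and under library size alone (-0.35, where the median of all genes was -0.28). It was closer to 0 and not called without CDK4/6i+ATRA replicate 1 (-0.023) and with at least 10 counts in every library (-0.036). The interaction for SUMO2 was 0.10 and not called, -0.22 under library size alone, and called without CDK4/6i+ATRA replicate 1 at 0.14. Without a call it was 0.061 without CDK4/6i+ATRA replicate 2, 0.067 without ATRA replicate 3 and 0.016 with no filter. Pseudogenes of SUMO2 held 747 counts over all libraries, 1.69% of the counts of the gene itself.

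SUMO3, on chromosome 21 at 44805617 to 44818062 on the minus strand, had 139, 132 and 133 CPM in the non-treated libraries, 111, 111 and 109 with ATRA, 102, 96.8 and 97.1 with CDK4/6i, and 74.3, 82.1 and 81.6 with CDK4/6i+ATRA. These 4 groups did not overlap, and each treatment lay below the one before it in this order. Its log2 fold change was -0.29 for ATRA, -0.45 for CDK4/6i and -0.76 for the combination (edgeR quasi-likelihood test, Benjamini-Hochberg adjusted p = 3.56e-08, 4.91e-13 and 1.04e-20). The interaction was -0.024 with a 95% interval of -0.15 to 0.10 and was not called. It was positive without CDK4/6i replicate 1 (0.0057) or CDK4/6i+ATRA replicate 1 (0.019), at its lowest without non-treated replicate 1 (-0.056), and called at -0.34 under library size alone.

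As a share of SUMO2 plus SUMO3 in counts per kb of exon, SUMO3 made up 45.6, 44.1 and 45.4% in the non-treated libraries, 42.9, 42.3 and 43.6% with ATRA, 45.8, 44.7 and 45.8% with CDK4/6i, and 41.3, 40.9 and 41.5% with CDK4/6i+ATRA. Both groups with ATRA lay below both groups without it, with no overlap. The mean share with CDK4/6i+ATRA was 41.2% ± 0.297 (SD, n = 3) against 45.0% ± 0.821 (SD, n = 3) in non-treated cells, a difference of -3.76 percentage points (exact two-sided permutation test, p = 0.1, adjusted p = 0.111 by Benjamini-Hochberg over 10 tests). With 3 libraries against 3, p = 0.1 is the smallest that the exact test allows, so this test cannot reach 0.05. With CDK4/6i alone the share differed by 0.441 points (exact permutation p = 0.5), within the spread between libraries, by -0.0288 points without non-treated replicate 2 and by 0.825 points without CDK4/6i replicate 2.

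SAE1 and UBA2 form the only activating enzyme of the pathway, with UBA2 carrying the catalytic cysteine. SAE1, on chromosome 19 at 47130835 to 47210636 on the plus strand, had 331, 308 and 305.5 CPM in the non-treated libraries, 244, 243 and 262 with ATRA, 144, 147 and 148.5 with CDK4/6i, and 81.3, 84.1 and 90.8 with CDK4/6i+ATRA. The 4 groups were separate, and each gap between neighbouring groups was wider than the spread within them. In the combination SAE1 had a log2 fold change of -1.88 ± 0.045 (SE, edgeR quasi-likelihood test, Benjamini-Hochberg adjusted p = 1.51e-37), or 0.272 of the non-treated level, lower in 3 of 3 libraries. It was the lowest log2 fold change among the 8 members in that comparison under every scaling tried. Alone, ATRA gave -0.33 and CDK4/6i gave -1.11.

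The fall of SAE1 with the combination was larger than the sum of the single effects. Its interaction was -0.44 ± 0.061 (SE, edgeR quasi-likelihood test, Benjamini-Hochberg adjusted p = 2.27e-08) with a 95% interval of -0.56 to -0.32. It remained called when any 1 library was left out, at -0.49 to -0.41, and under library size alone it was -0.76.

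UBA2, on chromosome 19 at 34428381 to 34471251 on the plus strand, had 356, 352 and 331 CPM in the non-treated libraries, 254, 258.5 and 268.0 with ATRA, 224, 217 and 221.5 with CDK4/6i, and 167, 171.5 and 163 with CDK4/6i+ATRA. The groups were separate and in the same order as for SAE1, over a narrower range. In the combination UBA2 had a log2 fold change of -1.05 ± 0.039 (SE, edgeR quasi-likelihood test, Benjamini-Hochberg adjusted p = 3.28e-29). The interaction of UBA2 was 0.0094 with a 95% interval of -0.099 to 0.12, not called (edgeR quasi-likelihood test, Benjamini-Hochberg adjusted p = 0.907), and -0.31 and called under library size alone. Its sign was also negative, without a call, with DESeq2 size factors (-0.012), with no filter (-0.076), and without non-treated replicate 1 (-0.018) or 2 (-0.0073), ATRA replicate 1 (-0.015) or 2 (-0.0023), CDK4/6i replicate 2 (-0.0088) or CDK4/6i+ATRA replicate 2 (-0.014), and it was highest without non-treated replicate 3 (0.034).

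The ratio of SAE1 to UBA2, in counts per kb of exon, was 1.49, 1.40 and 1.47 in the non-treated libraries, 1.54, 1.5 and 1.56 with ATRA, 1.02, 1.08 and 1.07 with CDK4/6i, and 0.777, 0.783 and 0.889 with CDK4/6i+ATRA. No groups overlapped, ATRA alone had the highest ratios, and the combination had the lowest. The mean ratio was 1.45 ± 0.0468 (SD, n = 3) in non-treated cells and 0.816 ± 0.0631 (SD, n = 3) with CDK4/6i+ATRA, 56.2% of the non-treated value (exact two-sided permutation test, p = 0.1, adjusted p = 0.111). All 5 comparisons of this ratio gave the smallest p that the exact test allows. UBA2 is also listed on 1 patch contig, and its length here is the 4164 exon bases on chromosome 19 rather than the 8169 bases of both copies, which sets the height of the ratio but not the order of the groups. How reads that match both copies were counted is not stated, so the level of UBA2 is uncertain.

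**Figure D2:**
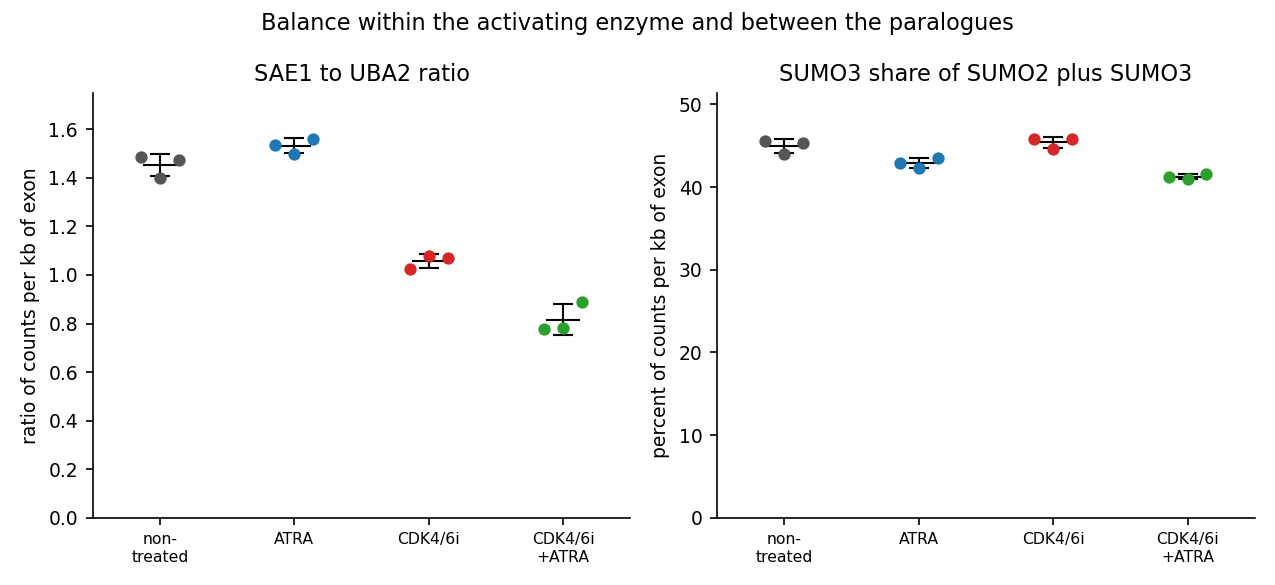
Left, the ratio of SAE1 to UBA2 in counts per kb of exon, and right, SUMO3 as a percentage of SUMO2 plus SUMO3 in counts per kb of exon, by group; points are libraries, long bars means of 3 libraries and whiskers the SD. The mean ratio was 1.45 in non-treated cells and 0.816 with CDK4/6i+ATRA, and the SUMO3 share was lower in both groups with ATRA.

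The activating enzyme of the neighbouring NEDD8 modifier has the same 2-part build, with NAE1 and UBA3 in the places of SAE1 and UBA2. The mean ratio of NAE1 to UBA3 in counts per kb was 1.72 ± 0.101 (SD, n = 3) without treatment, 0.864 ± 0.0639 after ATRA, 1.09 ± 0.0189 after CDK4/6i and 0.219 ± 0.00892 after the combination. ATRA alone had a lower NAE1 to UBA3 ratio than non-treated cells, whereas the SAE1 to UBA2 ratio was higher with ATRA. With the combination NAE1 had a log2 fold change of -2.27 and UBA3 one of 0.70, both called. Under library size alone these values kept their sign, at -2.53 for NAE1 and 0.438 for UBA3. The difference between the 2 enzymes was not tested.

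Promoter sequences from RefSeq on GRCh38.p14 were found for 7 of the 8 members, in 10 entries, with no entry for SAE1. The 250 bases before the start are printed for SUMO2, SUMO3 and UBA2, which fell with each treatment, and for PIAS1, which rose with ATRA. They run 5′ to 3′ on the strand of the gene, with capitals for matches to the motifs searched on both strands: CACGTG (E-box), TTTCCCGC, TTTGGCGC or TTTCGCGC (E2F), CCAAT (NF-Y), GCGCATGC (NRF1) and CCGGAAG (ETS). The windows are chr17:75182960-75183209 on the minus strand for SUMO2, chr21:44818063-44818312 on the minus strand for SUMO3, chr19:34428131-34428380 on the plus strand for UBA2 and chr15:68054065-68054314 on the plus strand for the first of 2 PIAS1 entries.
SUMO2: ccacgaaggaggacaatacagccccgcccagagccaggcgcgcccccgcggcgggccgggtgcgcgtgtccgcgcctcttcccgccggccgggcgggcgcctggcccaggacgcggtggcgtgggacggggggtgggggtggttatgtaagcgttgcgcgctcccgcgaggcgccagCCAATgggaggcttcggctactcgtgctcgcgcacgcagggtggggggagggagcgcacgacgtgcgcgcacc
SUMO3: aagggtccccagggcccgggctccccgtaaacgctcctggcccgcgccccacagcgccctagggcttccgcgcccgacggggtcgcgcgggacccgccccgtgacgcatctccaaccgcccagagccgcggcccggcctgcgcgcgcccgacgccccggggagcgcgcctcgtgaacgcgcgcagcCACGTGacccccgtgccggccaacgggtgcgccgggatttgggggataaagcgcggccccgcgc
UBA2: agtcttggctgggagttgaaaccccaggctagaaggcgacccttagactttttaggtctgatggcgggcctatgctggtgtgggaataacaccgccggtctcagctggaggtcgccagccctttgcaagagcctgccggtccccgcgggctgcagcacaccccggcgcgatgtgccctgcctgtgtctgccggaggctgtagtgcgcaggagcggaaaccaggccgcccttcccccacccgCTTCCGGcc
PIAS1: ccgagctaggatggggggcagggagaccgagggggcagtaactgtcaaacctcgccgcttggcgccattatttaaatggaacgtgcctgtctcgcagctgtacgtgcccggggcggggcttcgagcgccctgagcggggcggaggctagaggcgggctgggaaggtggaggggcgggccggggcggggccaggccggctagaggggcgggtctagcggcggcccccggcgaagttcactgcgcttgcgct
In the SUMO2 window CCAAT begins 73 bases before the start, in the SUMO3 window CACGTG begins 64 bases before it, and in the UBA2 window CCGGAAG on the opposite strand begins 9 bases before it. The first PIAS1 window holds none of these letters. The 3 falling members showed no motif in common in these windows. Among the other members, PIAS4 holds CACGTG 27 bases and CCAAT 157 and 68 bases before its start, and 2 of the 3 SENP1 entries, whose windows overlap, hold the same CCGGAAG site on the opposite strand. Of 35116 promoters of the same length, 6.34% hold the E-box letters, 2.32% those of E2F, 32.0% those of NF-Y, 2.63% those of NRF1 and 8.52% those of ETS. A match describes letters and is not evidence of binding.

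PIAS proteins are ligases that promote the joining of SUMO to its targets, and they were first described as inhibitors of STAT transcription factors. PIAS1, on chromosome 15 at 68054315 to 68193847 on the plus strand, had 64.6, 63.6 and 60.6 CPM in the non-treated libraries, 91.8, 92.3 and 93.1 with ATRA, 50.5, 50.7 and 54.5 with CDK4/6i, and 82.3, 79.2 and 90.9 with CDK4/6i+ATRA. Both groups with ATRA lay above both groups without it, and no groups overlapped. The log2 fold change was 0.56 ± 0.049 with ATRA (SE, edgeR quasi-likelihood test, Benjamini-Hochberg adjusted p = 3.6e-14), higher in 3 of 3 libraries. With CDK4/6i it was -0.28 ± 0.053 (SE, edgeR quasi-likelihood test, Benjamini-Hochberg adjusted p = 1.11e-05).

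Adding ATRA to CDK4/6i raised PIAS1 by 0.70 on the log2 scale, and by 0.42 under library size alone. The combination was lower than ATRA alone by a log2 difference of -0.13 (edgeR quasi-likelihood test, Benjamini-Hochberg adjusted p = 0.0163), a call lost without CDK4/6i+ATRA replicate 1 (-0.12) or replicate 2 (-0.097). This difference was -0.23 with no filter, -0.20 in the 2 groups alone and -0.44 under library size alone. The interaction of PIAS1 was 0.14, not called, and -0.18 under library size alone, while without CDK4/6i+ATRA replicate 2 it was called at 0.18. It was 0.082 without CDK4/6i+ATRA replicate 3 and 0.059 with no filter, not called in either. Exons of PIAS1 share 3143 bases with CALML4 on the opposite strand, which held 2403 counts over all libraries against 13559 for PIAS1, and although the library kit was a directional one, whether the counting used strand is not stated.

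PIAS4, on chromosome 19 at 4007736 to 4039386 on the plus strand, had 39.3, 38.1 and 36.7 CPM in the non-treated libraries, 38.8, 38.7 and 41.7 with ATRA, 34.8, 35.8 and 37.8 with CDK4/6i, and 41.2, 43.7 and 42.8 with CDK4/6i+ATRA. It varied least of the 8 members, and the non-treated libraries overlapped those of each single agent. In the combination PIAS4 had a log2 fold change of 0.16 ± 0.063 under TMM (SE, edgeR quasi-likelihood test, Benjamini-Hochberg adjusted p = 0.0171) and -0.10, not called, under library size alone. The call was also lost without non-treated replicate 3 (0.13), without CDK4/6i+ATRA replicate 2 (0.14) and with no filter on low counts (0.054). Against CDK4/6i alone the combination differed by 0.24 under TMM, by -0.041 and without a call under library size alone, and by 0.14 without a call with no filter.

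**Figure D3:**
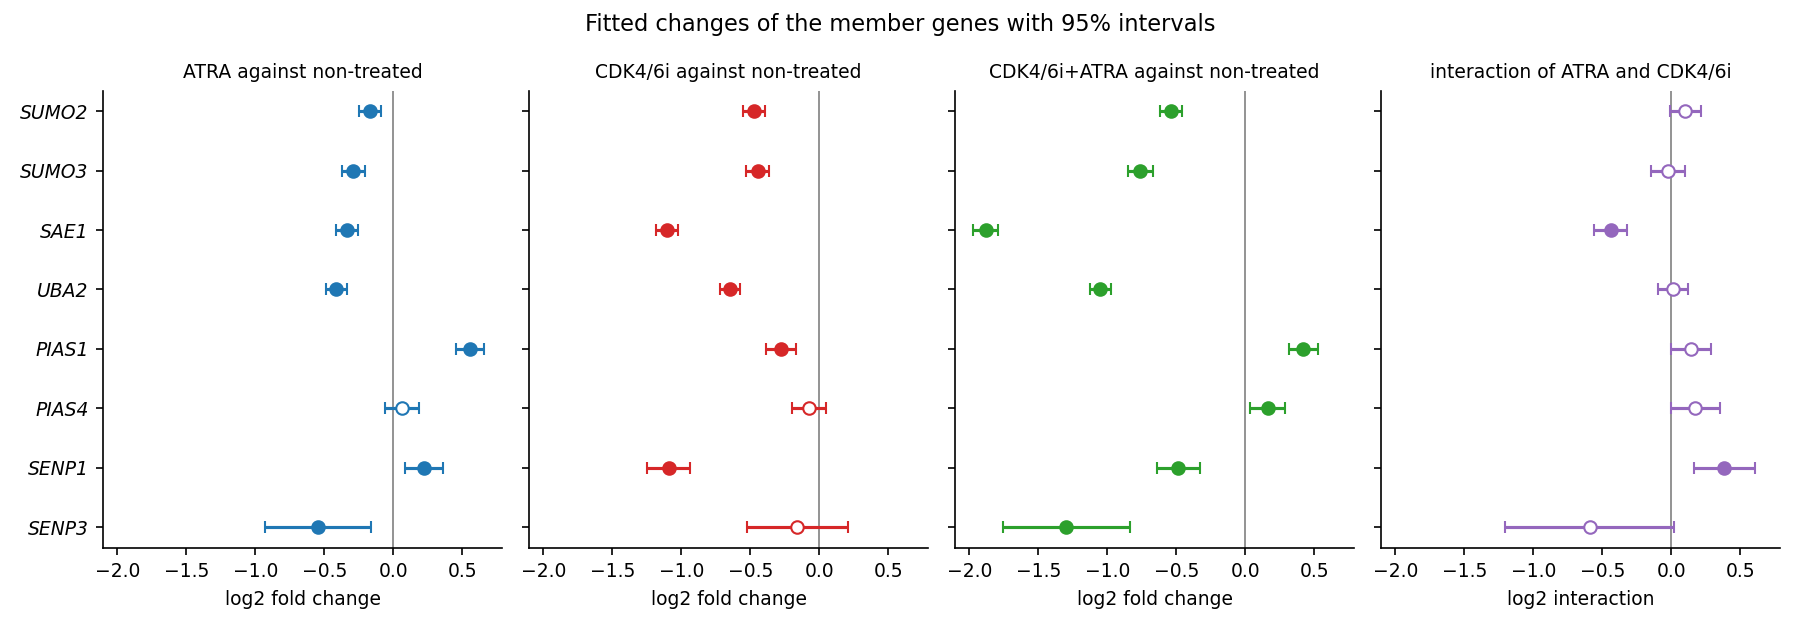
Log2 fold change or interaction (horizontal axes) of the 8 members under TMM in 4 comparisons; points are fitted values over 12 libraries, bars 95% intervals, and filled points are called at an adjusted p under 0.05. SAE1 had the lowest value with CDK4/6i+ATRA at -1.88, and the positive value of PIAS4 there and the interactions of SUMO2, UBA2, PIAS1 and PIAS4 turn negative under library size alone.

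SENP1 trims SUMO precursors and removes SUMO from targets. SENP1, on chromosome 12 at 48042897 to 48106079 on the minus strand, had 38.5, 35.4 and 38.1 CPM in the non-treated libraries, 40.4, 45.2 and 45.1 with ATRA, 16.3, 20.2 and 16.3 with CDK4/6i, and 26.2, 26.2 and 27.7 with CDK4/6i+ATRA. The CDK4/6i libraries were the lowest, the combination lay between them and the non-treated libraries, ATRA was highest, and no groups overlapped. The log2 fold change was 0.22 with ATRA and -1.09 with CDK4/6i (edgeR quasi-likelihood test, Benjamini-Hochberg adjusted p = 0.00331 and 1.7e-17). With CDK4/6i+ATRA it was -0.48, or -0.75 under library size alone, smaller in size than with CDK4/6i alone.

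Added to CDK4/6i, ATRA thus raised SENP1 by 0.61 on the log2 scale (edgeR quasi-likelihood test, Benjamini-Hochberg adjusted p = 1.02e-08), and by 0.33 under library size alone. The interaction was 0.39 ± 0.108 (SE, edgeR quasi-likelihood test, Benjamini-Hochberg adjusted p = 0.00234), with a 95% interval of 0.17 to 0.60, and under library size alone it was 0.066 and not called. It stayed called without any 1 library, at 0.33 to 0.48. Exons of SENP1 share 520 bases with PFKM on the opposite strand, which held 2514 counts against 5975.

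SENP3 is a protease that prefers SUMO2 and SUMO3 and is found in the nucleolus. SENP3, on chromosome 17 at 7561919 to 7571969 on the plus strand, had 4.86, 4.38 and 4.95 CPM in the non-treated libraries, 3.32, 3.49 and 2.92 with ATRA, 4.56, 4.76 and 3.39 with CDK4/6i, and 1.92, 1.34 and 2.48 with CDK4/6i+ATRA. The combination libraries were below all others, and the CDK4/6i libraries overlapped both the non-treated and the ATRA libraries. These levels rest on 15 to 88 counts per library. In the combination SENP3 had a log2 fold change of -1.30 ± 0.228 (SE, edgeR quasi-likelihood test, Benjamini-Hochberg adjusted p = 1.44e-06).

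Against ATRA alone the combination differed by -0.75 for SENP3, and the call was lost without CDK4/6i+ATRA replicate 2 (-0.56). Its interaction of -0.59 was not called, and was called without CDK4/6i replicate 3 (-0.73), without CDK4/6i+ATRA replicate 3 (-0.83) and under library size alone (-0.91). Of the 2567 exon bases of SENP3, 2004 are shared on the same strand with the read-through gene SENP3-EIF4A1, which held 0 to 5 counts per library. The neighbouring gene EIF4A1, a translation factor that cells use widely, was listed at 0 in every library. How reads over the shared bases were counted is not stated, so the level of SENP3 is uncertain and was not ranked against other genes.

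Per length, SUMO2, SUMO3, SAE1 and UBA2 were above PIAS4, PIAS1 and SENP1 in every group. In non-treated cells SAE1 had the highest level among the members at 121 CPM per kb of exon, above SUMO2 at 88.7, UBA2 at 83.2 and SUMO3 at 72.5. PIAS4 followed at 10.5 CPM per kb, SENP1 at 7.07 and PIAS1 at 6.49, and in this group no neighbours in the order overlapped. With ATRA the first 5 kept this order, and PIAS1 at 9.54 CPM per kb stood above SENP1 at 8.25. With CDK4/6i SUMO2 came first at 63.8 CPM per kb, then SAE1 at 56.1, then SUMO3 at 53.2 and UBA2 at 53.1, whose libraries overlapped. With CDK4/6i+ATRA SUMO2 was first at 61.0 CPM per kb, SUMO3 at 42.8 and UBA2 at 40.2 overlapped, and SAE1 stood at 32.8. SAE1 thus went from the top of the order to a place below SUMO2 and SUMO3. The place of UBA2 is uncertain, since over the 8169 bases of both copies its level was 42.4 CPM per kb in non-treated cells, below SUMO3, and 20.5 with CDK4/6i+ATRA, below SAE1.

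**Figure D4:**
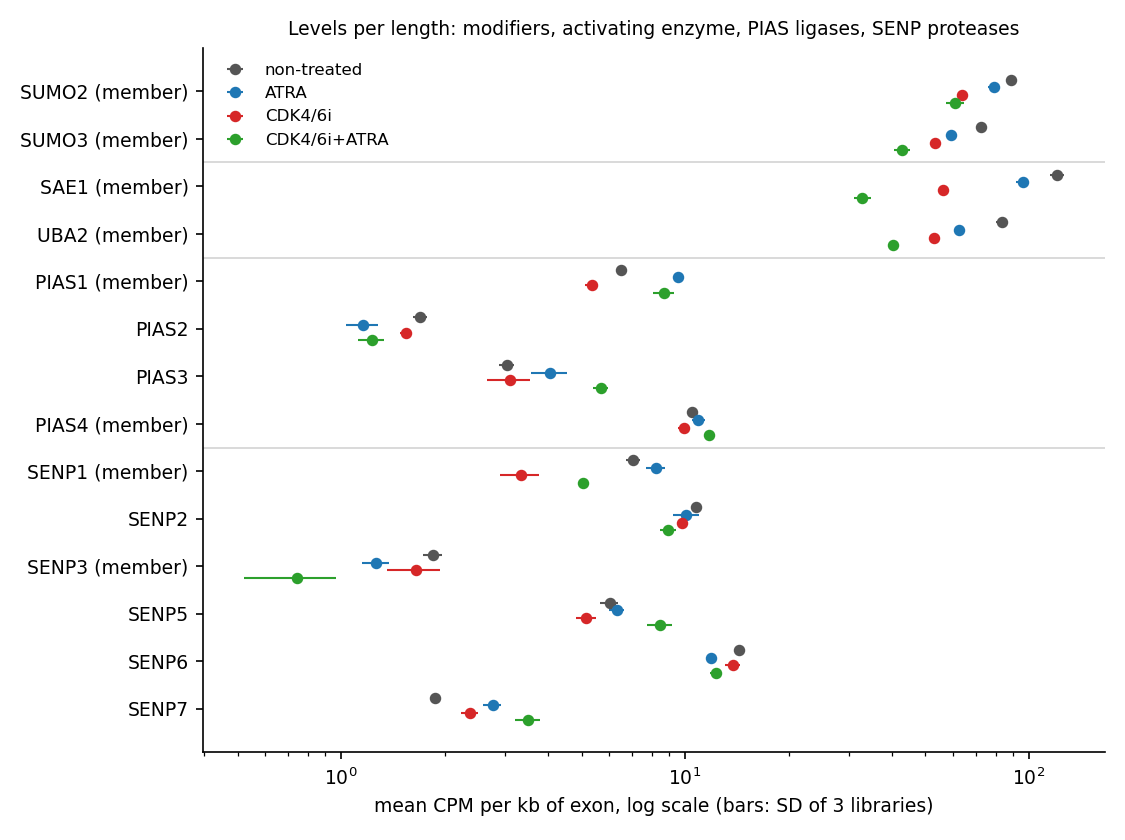
Mean CPM per kb of exon (horizontal axis, log scale) of 14 genes of the SUMO pathway in the 4 groups; bars are the SD of 3 libraries, and the level of SENP3 is uncertain because most of its exon bases are shared. SAE1 spans 121 to 32.8 CPM per kb from non-treated cells to CDK4/6i+ATRA, and PIAS1, PIAS4 and SENP1 lie below SUMO2 and SUMO3.

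The other genes of the pathway analysed here were 23 ligases, proteases, targets, readers and the modifier gene SUMO4, of which 22 were tested and SUMO4, at 0 to 5 counts per library, was not. With ATRA 7 were called higher and 6 lower, with CDK4/6i 6 and 10, and with CDK4/6i+ATRA 8 and 9. Beside these stand 32.1% and 35.5% of all tested genes for ATRA, 28.3% and 27.9% for CDK4/6i, and 41.0% and 40.7% for the combination, where the list had 36.4% and 40.9%. Under library size alone the combination had 6 higher and 14 lower, or 27.3% and 63.6%, beside 32.9% and 48.3% of all tested genes. The combination against CDK4/6i had 13 higher and 7 lower, beside 39.1% and 39.5% of all tested genes, or 6 and 9 under library size alone, beside 28.6% and 49.2%. Against ATRA it had 9 higher and 6 lower, beside 36.9% and 32.8%, or 3 and 15 under library size alone, beside 22.2% and 48.1%. The interaction was called for 9 upward and 3 downward, beside 24.5% and 27.0%, or for 4 and 8 under library size alone, beside 10.3% and 45.5%. With no filter it was called for 5 upward, beside 6438 of 28097 tested genes called, 37.9% of these higher.

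RANGAP1, a target that carries SUMO stably, had a log2 fold change of -3.01 with the combination against non-treated cells and an interaction of -1.76, both called. TRIM28, a corepressor with ligase activity, had a log2 fold change of -1.92 with the combination and an interaction of -0.74, both called. SP100, a component of nuclear bodies, had a log2 fold change of 1.86 with the combination, while PML had one of -0.17. These 4 genes kept their direction with the combination against non-treated cells under library size alone, where the value for PML was -0.435. DAXX held few counts and is also listed on 4 other contigs, so its level is uncertain.

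Within the PIAS family, PIAS1 made up 29.9% ± 0.0881 (SD, n = 3) of the summed CPM per kb of PIAS1 to PIAS4 in non-treated cells, 37.1% ± 0.614 after ATRA, 26.85% ± 0.564 after CDK4/6i and 31.8% ± 1.81 after the combination, whose libraries overlapped the non-treated ones. PIAS4 made up 48.3% ± 0.351, 42.6% ± 1.43, 49.9% ± 1.53 and 42.9% ± 0.996 in the same order (SD, n = 3). PIAS2 made up 7.827% ± 0.201, 4.495% ± 0.422, 7.748% ± 0.439 and 4.501% ± 0.51 in that order (SD, n = 3). PIAS3 rose with the combination by 0.91 on the log2 scale under TMM and by 0.65 under library size alone. PIAS2 fell with the combination, with log2 fold changes of -0.4509 with DESeq2 size factors and -0.734 under library size alone. Among proteases outside the members, SENP5 and SENP7 rose with the combination by 0.48 and 0.90, and by 0.22 and 0.63 under library size alone, whereas SENP2 and SENP6 fell, with log2 fold changes of -0.27 and -0.22, or -0.54 and -0.49 under library size alone.

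**Figure D5:**
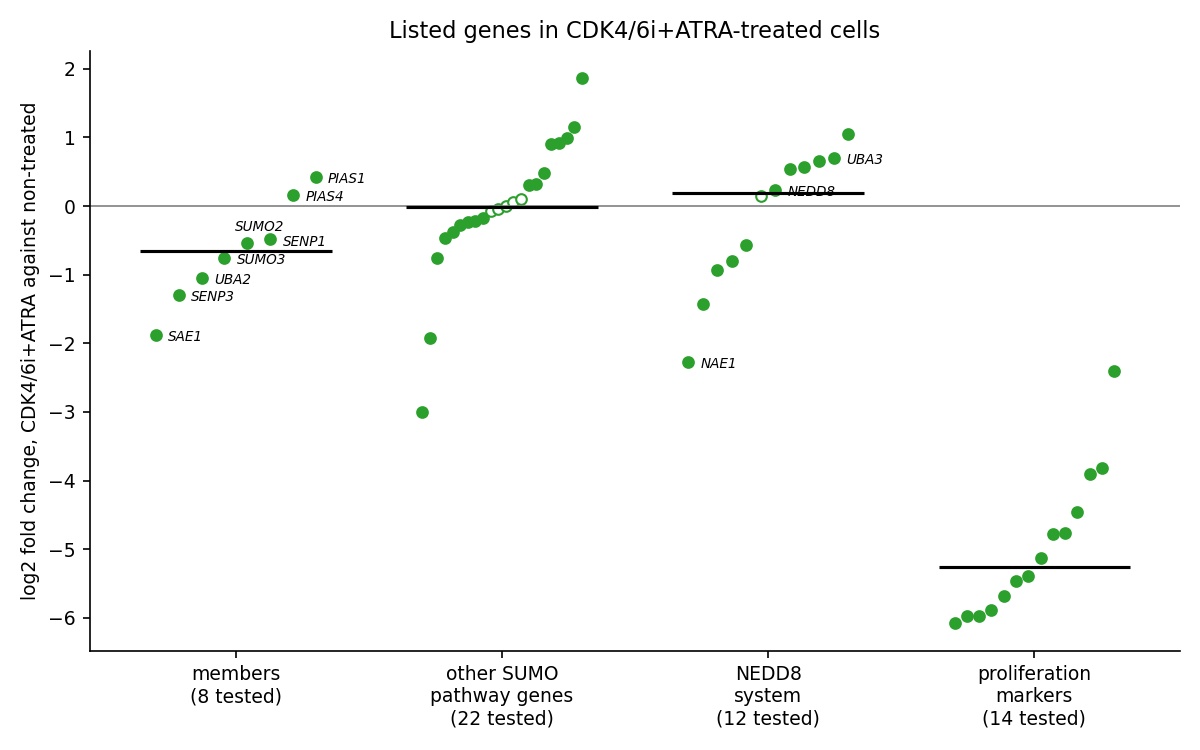
Log2 fold change of CDK4/6i+ATRA against non-treated cells under TMM (vertical axis) for the members, the other SUMO pathway genes, the NEDD8 system and proliferation markers; each point is a gene, filled when called, and black bars are list medians. The members' median of -0.65 lies between those of the other pathway genes and the proliferation markers, and PIAS4 turns negative under library size alone.

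In the NEDD8 system 12 genes were tested, and with CDK4/6i+ATRA 6 were called higher and 5 lower. With ATRA 5 were called in each direction, and with CDK4/6i 6 higher and 4 lower. The combination had 5 higher and 6 lower against CDK4/6i, and 5 in each direction against ATRA, where the higher calls were 2 without CDK4/6i+ATRA replicate 3, with no filter or with only the 2 groups fitted, and 3 without ATRA replicate 3. The interaction was called for 2 upward and 6 downward. With no filter, 3 rather than 5 were higher against CDK4/6i. Under library size alone these counts were 5 and 5 for the combination against non-treated cells, 3 and 7 against CDK4/6i, 2 and 7 against ATRA, and 1 and 9 in the interaction. The shares of all tested genes under TMM with the filter and under library size alone are those given for the other pathway genes. Against ATRA, 9196 of 28097 tested genes were called with no filter, 46.4% of these higher. With only the 2 groups fitted, 9014 of 12476 were called, 48.6% of these higher. Without CDK4/6i+ATRA replicate 3 or ATRA replicate 3, 8954 of 13668 and 8964 of 13664 were called, 52.7% of these higher in both. Against CDK4/6i with no filter, 10946 of 28097 were called, 46.5% of these higher.

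Across the 12 libraries, log2 CPM of SUMO3 and UBA2 had a Pearson correlation of 0.987, SAE1 and UBA2 of 0.969, and SUMO2 and SAE1 of 0.936. PIAS1 and PIAS4 had 0.775, and PIAS4 and SENP3 had -0.838. These values mostly reflect differences among 4 groups and are descriptions. Among 8226 other genes with a mean of at least 10 CPM, those most like SAE1 were HSP90AA1 (0.997), HSPH1 (0.997) and TUBA1B (0.997). Those most like UBA2 were MAGOH (0.995), HBS1L (0.994) and BANF1 (0.993). SUMO2 was most like TOP3A, YY1 and SFXN1 (0.988 to 0.982), and SUMO3 most like CFDP1, ABCD3 and YWHAQ (0.991 to 0.989). PIAS1 was most like FGD5-AS1, PIK3AP1 and RB1 (0.992 to 0.985), and PIAS4 most like GAPVD1, FAM91A1 and RIPK2 (0.946 to 0.936). SENP1 was most like QSER1, PDS5B and SMC5 (0.989 to 0.979), and SENP3, from 8227 genes, most like LCMT1, PIGQ and ASCC3 (0.958 to 0.951).

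Markers of proliferation and maturation differed between the same groups as the members. The 14 proliferation markers summed to 4613, 4603 and 4549 CPM in the non-treated libraries, 5005, 5125 and 5123 with ATRA, 716.5, 748.5 and 731.5 with CDK4/6i, and 156, 152 and 156 with CDK4/6i+ATRA. TOP2A held the largest part of the sum in non-treated cells and after ATRA, MCM2 after CDK4/6i and AURKA after the combination, none was at 0, 7 were called higher and 6 lower with ATRA, and all 14 were called lower after CDK4/6i and after the combination. All 14 were also lower with the combination against each single agent and in the interaction. The part of proliferation in the result was not tested.

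The 7 markers of maturing granulocytes or monocytes summed to 221 to 236 CPM in non-treated libraries, 4534 to 4648 with ATRA, 643 to 676 with CDK4/6i and 5619 to 5852 with CDK4/6i+ATRA, with CYBB the largest part and none at 0 throughout. Of 6 tested, 5 were called higher and FCGR1A lower with ATRA and with the combination against non-treated cells, and 5 higher with CDK4/6i, where CD38 was not called. The 10 myeloid markers summed to 7338 to 7679 CPM in non-treated libraries, 980.3 to 1039 with ATRA, 4375 to 4494 with CDK4/6i and 527 to 559 with CDK4/6i+ATRA, with MPO the largest part of the sum in non-treated cells and after CDK4/6i, and CEBPE in both groups with ATRA. Of 7 tested, 1 was called higher and 6 lower with ATRA, 4 and 3 with CDK4/6i, and 2 and 4 with the combination. ELANE, PRTN3 and AZU1, each also listed on 1 alternate contig, were listed at 0 in every library, so their levels are unknown here. Markers of other lineages were low: 5 T cell genes summed to 0.549 to 3.11 CPM with TRAC at 0, and 5 B cell genes to 13.1 to 25.3 CPM, mostly CD79A, with MS4A1 at 0. The 5 erythroid genes summed to at most 1.32 CPM with HBB, HBA1 and HBA2 at 0, and 4 megakaryocyte genes to 1.68 to 10.5 CPM, mostly ITGA2B, with PF4 at 0. The part of maturation in the result was not tested.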

How the data were processed

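RNA-Seq libraries from 12 HL60 cultures were used as deposited raw counts per gene. Per the labels and the study's methods, the authors trimmed reads with Trimmomatic 0.33 and aligned them with STAR 2.7.11a to hg38, and the methods name RSEM for the gene counts, whereas the deposited count table has the column layout of featureCounts, so the counting tool is uncertain, as is its strand setting, although the library kit was directional. The deposited Length column gives exon bases; for genes on several contigs, bases on the chromosome were used. Genes passing filterByExpr (13318 of 59251) were tested with edgeR 4.0.16 in R 4.3.3, with TMM scaling, a group-means model with 8 residual degrees of freedom, and Benjamini-Hochberg adjustment over all tested genes at 0.05 in each of 6 comparisons. The common biological coefficient of variation was 3.7%. Standard errors were the log2 fold change over the root of the F statistic, and 95% intervals came from the t distribution. The ratio of SAE1 to UBA2 and the SUMO3 share were compared by exact permutation tests. Similar genes were ranked by Pearson correlation of log2 CPM with a prior count of 2. The procedure was run on simulated counts in which few genes changed, equally in both directions and in the combination group alone. This does not check the scaling of libraries where most genes are called. Alternatives were DESeq2 size factors, library size alone, a minimum of 10 counts in every library, no filter, DESeq2 1.42.0, a replicate block, only the groups compared, and leaving out each library, with raw counts without length for the ratios. SENP3 over its unshared exon bases and the length column for UBA2, in its ratio and its level, were added after seeing the data. Python 3.11.15 with pandas 2.3.3, numpy 2.4.6, scipy 1.17.1 and matplotlib 3.10.9 made tables and plots. The named genes were all members, the lists of other SUMO pathway genes analysed here, NEDD8 genes, proliferation markers and lineage markers, the 3 most similar genes per member, and overlapping genes. The members and lists were chosen with earlier results of these data known. No library was left out.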

Additional observations from a re-analysis of the deposited data

Results flagged for a closer look

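For 2 members the effect of the combination differed from the sum of the single effects by a test of the interaction itself. For SAE1 the interaction was -0.44 (edgeR quasi-likelihood test, Benjamini-Hochberg adjusted p = 2.27e-08), so that the effect of ATRA was more negative with CDK4/6i than without it. For SENP1 the interaction was 0.39 (edgeR quasi-likelihood test, Benjamini-Hochberg adjusted p = 0.00234), so that the effect of ATRA was more positive with CDK4/6i than without it. The SENP1 interaction was 0.066 and not called under library size alone. Interactions were called for 24.5% of tested genes upward and 27.0% downward.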

How the results depend on the processing

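Of 664 alternative values for 48 log2 fold changes of the members, 629 kept their direction and their side of the threshold. Of the others, 8 lost a call and 9 gained one without a change of sign, and 18 changed sign. Some of these 18 also lost or gained a call and were counted only as sign changes. Under library size alone, the members called in the interaction were 6 rather than 2, beside 7434 of 13318 tested genes called, 18.5% of these higher. The interactions under this scaling were -0.22 for SUMO2, -0.31 for UBA2, -0.18 for PIAS1 and -0.15 for PIAS4. Under the same scaling PIAS4 was -0.10 in the combination against non-treated cells, -0.041 against CDK4/6i and -0.21 against ATRA. These sign changes go with the shift of the median of all genes under that scaling. The UBA2 interaction was -0.012 with DESeq2 size factors, -0.012 in DESeq2 and -0.076 with no filter. The median of all genes was -0.043, -0.043 and -0.095 in these settings, beside -0.022 under TMM. Relative to that median, UBA2 was at 0.031 both under TMM and with DESeq2 size factors. The cause was not tested. Leaving out 1 library gave a range of -0.056 to 0.019 for the SUMO3 interaction, -0.019 to 0.034 for the UBA2 interaction, and -0.0288 to 0.825 points for the SUMO3 share with CDK4/6i, and neither interaction was called in these fits.

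No pairing of the groups by library number was seen. Deviations of libraries with the same number correlated at -0.07 to 0.033, and those with different numbers at -0.049 to 0.06. The own number was the best match in 9 of 36 cases. With 3 libraries per group, this check cannot exclude a pairing. With a replicate block, 48 of 48 member log2 fold changes kept direction and side of the threshold. In the interaction 2 members were then called, beside 6775 of 13318 tested genes. Over its unshared exon bases SENP3 had a mean of 8.41 CPM per kb in non-treated cells and 3.40 with CDK4/6i+ATRA, an alternative chosen after seeing the data. Depth limits SENP3, with 15 to 88 counts per library. Replicates of a group differed by more than sampling noise, with 1.85 to 6.81 times its variance. The data cover 1 cell line, 1 dose of each agent and 1 time point, and RNA levels give no measure of SUMO modification or of protein.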
